A study of Mus musculus with 6 samples.

Results

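Immediate early genes are switched on within minutes of a stimulus, from transcription factors and other proteins that already wait in the cell. In the brain, synaptic activity, stress, injury and handling induce many of them, and their transcripts are short-lived. A frozen brain therefore holds a brief record of what its cells experienced shortly before death. The members described here are 35 genes given by symbol, namely transcription factors of the AP-1, EGR, NR4A and KLF families, synaptic effectors, and kinases, phosphatases and RNA-decay factors that end the response. The rule takes each probe set annotated to exactly 1 gene with a listed symbol and uses no measured value, although the list was drawn up with earlier results of these data known. All 35 genes had a probe set, out of 18193 genes with one, Cyr61 under its current symbol Ccn1. They were read by 61 probe sets, of which 52, covering 34 genes, lay above the limit for dim signals. Maff, a small MAF protein gene, stayed below that limit in its only probe set, between 2.49 and 23.3.

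The samples were whole brains of male mice aged 2 months, dissected and snap-frozen, and each brain was a separate animal on its own Affymetrix array. The heterozygous brains (n = 3) carried a knockout allele on 1 copy of the periphilin gene Pphln1, and their wild-type littermates (n = 3) were C57BL/6. The mice carried no other allele and received no treatment that the labels name, and the labels give neither the deleted part of Pphln1 nor the way the animals were killed. Periphilin belongs to the HUSH complex, which silences retroelements, and the study compared brain expression between these genotypes.

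Signals are linear probe-set intensities, scaled so that the mean of the central 96% was 150.0 on every array, and the number of arrays limits the precision. Differences and ranges are on the scale of log2(signal + 16). Probe sets of Pphln1 did not differ past the threshold: the brighter one lay between 269.2 and 352.8 in heterozygous and 290.2 and 314.0 in wild-type brains, and the dimmer one between 30.6 and 44.4 in heterozygous and 46.3 and 63.2 in wild-type brains. Neuron markers such as Snap25, at 7406.2 to 8873.6, and Gad1, at 3483.8 to 4462.6, were bright on all 6 arrays. Of 12 neuron markers, 8 were higher and 4 lower in sign in heterozygous brains, and 0 passed the threshold. Slc17a7 of that list did not overlap, at 500.9 to 554.5 in heterozygous and 620.3 to 673.9 in wild-type brains. Its difference was -0.27 (SE 0.09, limma adjusted p = 0.956), and 4.97% of all genes were lower without overlap. Pituitary markers varied between brains whatever the genotype. The summed signal of 8 of them was 257.8, 212.4 and 6755 in heterozygous brains 1 to 3, and 21269, 889.5 and 815.5 in wild-type brains 1 to 3. In whole tissue, fewer cells of a type and less RNA per cell cannot be told apart.

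No immediate early gene passed the test between the genotypes. Of the 52 member probe sets tested, 0 passed an adjusted p of 0.05 in either direction (limma, adjusted over all 27022 probe sets tested), where 0.0148% of all probe sets passed, 0.0111% as higher and 0.0037% as lower. At an unadjusted p below 0.05 there was 1 member probe set of 52, while 4.86% of all probe sets fell below it. The count was 3 with a replicate block. It was 2 with median centring, without the dim filter or without brain 1 of both genotypes. It was also 2 without heterozygous brain 3, wild-type brain 1 or wild-type brain 2 alone. The share of all probe sets under these settings is not given, so these counts cannot be read as a rise. In the main fit the probe set belongs to Fosl2, 1 of 34 genes, where 4.42% of all genes were below 0.05 at their brightest probe set. Limma adjusted p values of the members ran from 0.956 to 0.997. In sign, 15 of the 34 genes were higher in heterozygous brains and 19 lower, with a median difference of -0.01 against 0.01 over all 13024 genes. Single differences ran from -0.32 for Fosl2 to 0.26 for Tiparp. The 95% confidence interval of the difference lay within 1 log2 unit of 0 for 33 of the 34 genes, Sik1 being the exception, and within 0.5 for 22.

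**Figure D1:**
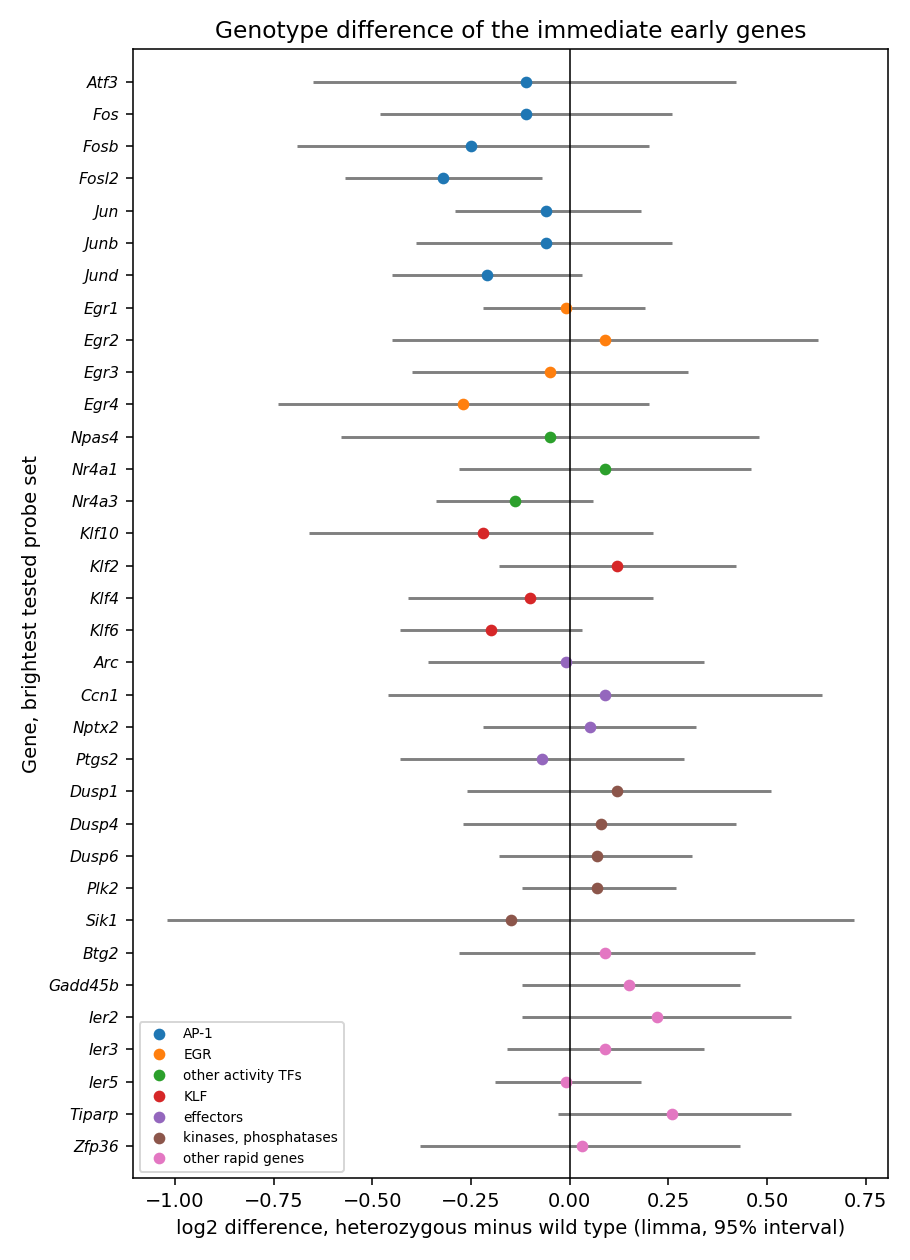
Difference between genotypes for the 34 members above the dim limit, by limma on log2(signal + 16), at each gene's brightest tested probe set. Points are estimates (n = 3 per genotype), bars are 95% confidence intervals and colours are role groups; the interval of Fosl2, from -0.57 to -0.07, is the one that does not cross 0, and its adjusted p was 0.956.

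The AP-1 genes encode leucine-zipper proteins that pair with one another on DNA, and Fos is the classic marker of recently active neurons. Fos measured 795.4, 1051.1 and 1177.0 in heterozygous brains 1 to 3, against 835.6, 1160.8 and 1286.9 in wild-type brains 1 to 3. Brain 1 of each genotype was the lowest of its group, and the groups overlapped (difference -0.11, SE 0.17, limma adjusted p = 0.973). Its interval, -0.48 to 0.26, corresponds on that scale to 0.72 to 1.19 times the wild-type signal. Junb, a JUN paralogue, had the same shape, with 132.5, 178.8 and 180.7 in heterozygous brains and 143.4, 187.0 and 184.9 in wild-type brains.

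Fosb, whose stable splice product builds up with repeated stimulation, was dimmer. It measured 43.1, 47.7 and 55.3 in heterozygous brains, against 47.7, 51.0 and 89.0 in wild-type brains, so that wild-type brain 3 stood above all others, and the difference of -0.25 (SE 0.20) was -0.02 without it. Atf3, a stress-induced factor that nerve injury activates, stayed close to the dim limit, at 8.38 to 24.1 in heterozygous brains and 14.2 to 23.9 in wild-type brains.

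Fosl2, which encodes the FOS relative FRA-2, was the lowest member by moderated t. Its brighter probe set gave 142.9, 168.5 and 178.7 in heterozygous brains, against 209.1, 199.0 and 215.4 in wild-type brains. The genotypes did not overlap there, as for 10.2% of all genes. An exact permutation test of 3 against 3 arrays cannot go below 0.1, the value it gave. The difference was -0.32 (SE 0.11, unadjusted p = 0.0159, limma adjusted p = 0.956), so it missed the threshold over all probe sets. By limma without heterozygous brain 1 the unadjusted p was 0.0674, and without wild-type brain 3 it was 0.0501. The dimmer Fosl2 probe set lay at -0.15 (SE 0.21) and overlapped, with 35.8, 27.6 and 16.4 in heterozygous brains and 32.5, 28.7 and 30.4 in wild-type brains.

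Jund, the JUN family member with a high resting level, measured 1095.2, 1006.2 and 980.4 in heterozygous brains, against 1395.9, 1154.8 and 1045.0 in wild-type brains (difference -0.21, SE 0.11, limma adjusted p = 0.956). Here wild-type brain 1 was the highest array, and without it the Jund difference was -0.10. Jun itself was flat, with group means of 307.5 ± 32.0 in heterozygous and 320.0 ± 23.4 in wild-type brains (SD, n = 3 each). All 7 AP-1 genes tested were lower in sign in heterozygous brains, with a median difference of -0.11, where 6255 of all 13024 genes were lower in sign. Without heterozygous brain 1 the count was 4 of 7, and without wild-type brain 3 it was 6 with a median of -0.02. Without wild-type brain 1 the median was -0.24, without heterozygous brain 2 it was -0.20, and without heterozygous brain 3 it was -0.21.

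The EGR zinc-finger factors follow neuronal activity and growth factor signals. Egr1, expressed at rest in much of the forebrain, was the brightest member. It measured 3243.6, 2941.9 and 2901.1 in heterozygous brains, against 2880.5, 2887.1 and 3433.4 in wild-type brains, a spread of 1.19-fold between the highest and lowest array. Its difference was -0.01 (SE 0.09, interval -0.22 to 0.19, limma adjusted p = 0.991).

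Egr2, known for its part in myelinating Schwann cells and also induced by neuronal activity, varied more. It gave 70.9, 130.0 and 148.7 in heterozygous brains, against 89.2, 84.7 and 146.8 in wild-type brains, at its brighter probe set. There the difference was 0.09 (SE 0.25), whereas the second Egr2 probe set lay at -0.42 (SE 0.22), and both missed the threshold. Egr4 was 66.4 in heterozygous brain 1, and 128.4 and 140.1 in the other heterozygous brains, against 119.7, 149.7 and 128.3 in wild-type brains.

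Egr3, an activity-induced factor needed for muscle spindle development, was bright. Its bright probe set gave 1058.9, 1528.8 and 1123.1 in heterozygous brains, against 1057.0, 1572.0 and 1217.2 in wild-type brains. Brain 2 was the highest of each genotype, as it was for Klf10 and Npas4, and the dim Egr3 probe set showed the same order at the top, with 49.8 in heterozygous brain 2 and 46.2 in wild-type brain 2, and 22.2 to 32.9 elsewhere. Over the 6 arrays both probe sets correlated at 0.75. Spry2, a feedback inhibitor of receptor tyrosine kinases and no member, was singled out after its values were seen. It measured 575.4, 917.9 and 559.0 in heterozygous brains, against 552.4, 864.3 and 552.5 in wild-type brains, again with brain 2 highest in each genotype.

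Npas4, a factor induced by calcium entry almost only in neurons, ranged almost as widely as Egr4. It measured 61.8, 137.3 and 125.0 in heterozygous brains, against 87.6, 137.0 and 100.8 in wild-type brains, so that brain 1 was the lowest and brain 2 the highest in each genotype. The difference of -0.05 (SE 0.24, interval -0.58 to 0.48, limma adjusted p = 0.990) is poorly determined. Nr4a1, an orphan nuclear receptor, gave 720.1, 780.5 and 771.1 in heterozygous brains, against 511.6, 761.2 and 915.8 in wild-type brains. The wild-type brains held both the lowest and the highest value. Nr4a3, its relative, spanned 435.7 to 481.9 in heterozygous and 476.7 to 536.9 in wild-type brains.

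KLF factors connect growth, vascular and neuronal signals. Klf10, induced by TGF-beta, measured 118.8, 222.2 and 180.2 in heterozygous brains, against 160.7, 234.3 and 209.7 in wild-type brains, with the same order of brains 1, 3 and 2 within each genotype. Klf2, which blood flow induces in endothelium, spanned 113.7 to 130.0 in heterozygous and 98.1 to 131.0 in wild-type brains. Klf4 spanned 91.4 to 114.1 in heterozygous and 95.8 to 128.2 in wild-type brains. Klf6, a regulator of axon growth in zebrafish retina, did not overlap at its brightest probe set, with 156.7, 158.9 and 174.6 in heterozygous brains and 193.2, 193.5 and 181.5 in wild-type brains. That difference was -0.20 (SE 0.10, unadjusted p = 0.0886, limma adjusted p = 0.956). The remaining 3 Klf6 probe sets gave -0.15, -0.11 and 0.04. Fosl2 and Klf6 were the 2 members of 34 whose genotypes did not overlap on the lower side, where 4.97% of all genes did so, and 0 members did so on the higher side at the brightest probe set, against 5.21% of all genes.

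Among the effectors, Arc encodes a capsid-forming protein that removes AMPA receptors from synapses. Arc measured 422.6, 561.3 and 423.1 in heterozygous brains, against 365.3, 489.2 and 573.1 in wild-type brains, with a difference of -0.01 (SE 0.16, interval -0.36 to 0.34, limma adjusted p = 0.996). The highest brain was brain 2 among the heterozygous and brain 3 among the wild-type ones. Nptx2, a secreted pentraxin that clusters AMPA receptors, averaged 204.8 ± 32.2 in heterozygous and 196.6 ± 7.17 in wild-type brains, and Ptgs2, the inducible cyclooxygenase, 86.8 ± 13.5 in heterozygous and 92.6 ± 18.0 in wild-type brains (SD, n = 3 each). The dimmer Ptgs2 probe set did not overlap, with 62.0, 62.6 and 66.8 in heterozygous brains and 49.3, 57.2 and 59.0 in wild-type brains (difference 0.17, SE 0.14, limma adjusted p = 0.956). Ccn1, a matrix protein of vessels and other cells, was dim, with 39.8, 54.9 and 70.8 in heterozygous brains and 29.8, 74.5 and 52.8 in wild-type brains. A Ccn1 probe set below the dim limit did not overlap, at 21.1 to 27.5 in heterozygous and 2.21 to 8.09 in wild-type brains. The other Ccn1 probe sets overlapped, and the dim one was not in the fit.

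Dusp1 encodes a phosphatase that switches off MAP kinases. It measured 896.6, 1135.0 and 1169.4 in heterozygous brains, against 697.1, 1132.6 and 1160.9 in wild-type brains. Brains 2 and 3 of both genotypes were within 1132.6 to 1169.4, and brain 1 was lower in each (difference 0.12, SE 0.18, limma adjusted p = 0.971). Dusp4 and Dusp6, phosphatases with a preference for ERK in the case of Dusp6, lay at 0.08 (SE 0.16) and 0.07 (SE 0.11). Plk2, a kinase that weakens overexcited synapses, lay at 0.07 (SE 0.09). Sik1, a salt-inducible kinase that restrains CREB signalling, had the widest range of all members. Its values were 47.7, 3.98 and 14.4 in heterozygous brains and 14.8, 41.8 and 13.4 in wild-type brains, which straddle the dim limit of 19.1.

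Of the remaining rapid genes, Tiparp, a target of the aryl hydrocarbon receptor, was the highest member by moderated t. It gave 312.1, 268.2 and 302.7 in heterozygous brains, against 202.7, 297.2 and 234.9 in wild-type brains (difference 0.26, SE 0.13, unadjusted p = 0.0752, limma adjusted p = 0.956). Without wild-type brain 1 the difference was 0.14, and without wild-type brain 2 it was 0.40. The remaining Tiparp probe sets gave -0.06 (SE 0.13) and -0.14 (SE 0.13). Ier2, a small nuclear protein gene, measured 90.6, 140.5 and 127.1 in heterozygous brains, against 95.9, 102.4 and 98.6 in wild-type brains. Heterozygous brains 2 and 3 were above every wild-type brain and brain 1 below (difference 0.22, SE 0.15, limma adjusted p = 0.956). Ier2 lay at 0.38 without heterozygous brain 1 and at 0.10 without heterozygous brain 2.

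Btg2, an antiproliferative gene that p53 also induces, measured 102.2, 127.0 and 157.2 in heterozygous brains, against 94.7, 124.2 and 139.2 in wild-type brains. Both groups rank brain 1 lowest and brain 3 highest. Ier5 was the steadiest member, at 457.6, 471.2 and 461.4 in heterozygous brains and 476.4, 455.9 and 463.5 in wild-type brains. Gadd45b, linked to activity-dependent DNA demethylation, lay at 0.15 (SE 0.12), Ier3 at 0.09 (SE 0.11) and Zfp36, which encodes the RNA-decay factor tristetraprolin, at 0.03 (SE 0.18).

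**Figure D2:**
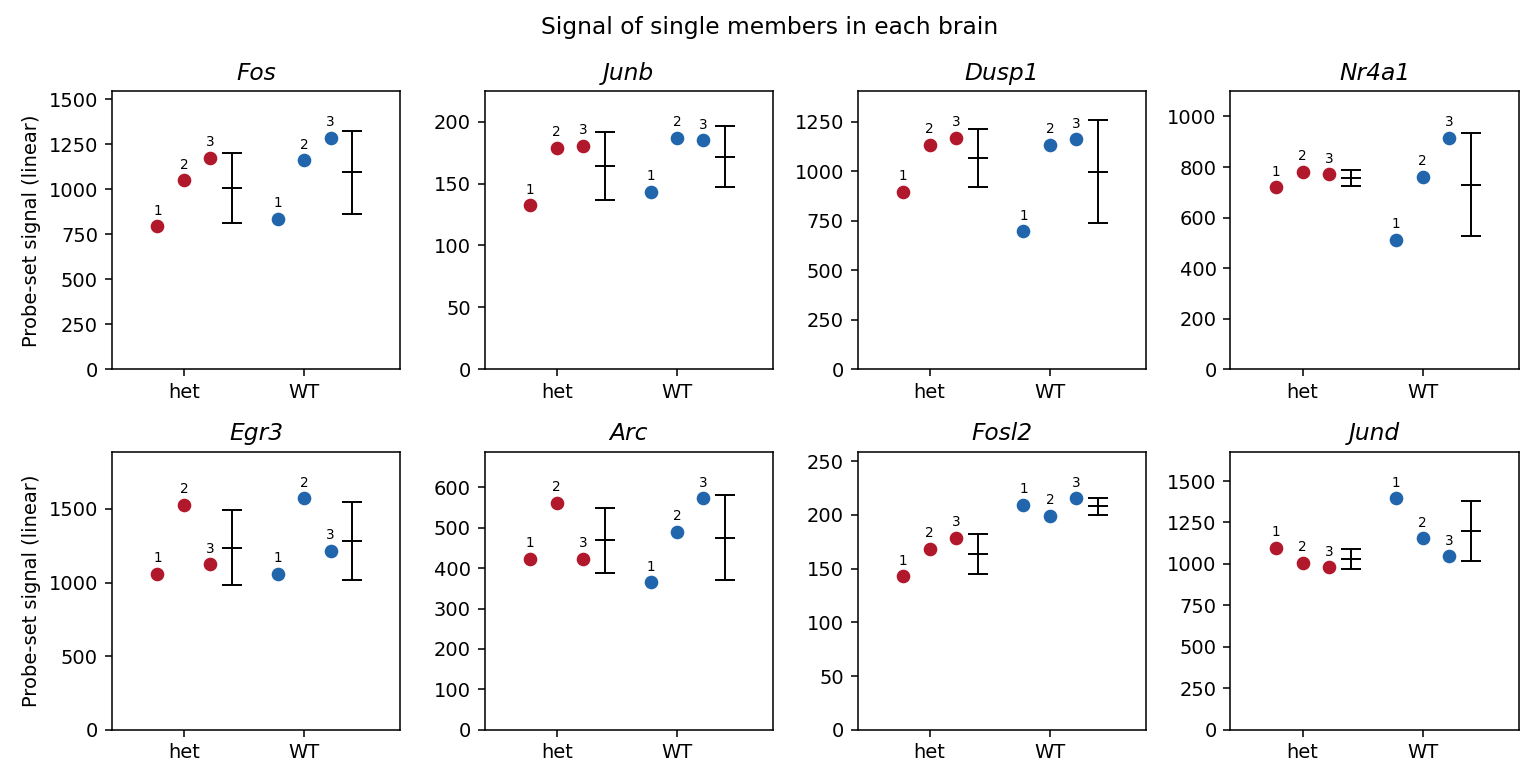
Linear probe-set signal of 8 members in each brain, with heterozygous (het) left of wild type (WT) and brains numbered 1 to 3. Points are single arrays and the bars beside them mean ± SD (n = 3 each). Fos, Junb and Dusp1 were lowest in brain 1 of each genotype, Egr3 was highest in brain 2 of each, and Jund was highest in wild-type brain 1.

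The median member differed more between brains of the same genotype than the median gene did. The median SD within a genotype was 0.21 over the 34 members, 0.15 over all genes, and 0.14 over the 5323 other genes in the middle 2 quartiles of the members' signal. All 34 members were kept, also those dimmer or brighter than these quartiles, so comparisons with those 5323 genes are not matched for signal. The range over the 6 arrays exceeded 0.5 for 19 of 34 members (55.9%), 4562 of all 13024 genes and 1312 of those 5323 (24.6%). Glucocorticoid-induced genes varied at least as much, with a median SD of 0.23 and a range above 0.5 for 11 of 14 (78.6%), and further rapid genes passed that range for 13 of 26. Ranges ran from 0.06 for Ier5 to 1.01 for Egr4 and 1.67 for Sik1.

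Part of that spread was shared by some of the members. Wild-type brain 1 was the lowest array for 14 of the 34 members and heterozygous brain 1 for 12, which are 41.2% and 35.3%. Of all genes, 15.0% were lowest in wild-type brain 1 and 18.7% in heterozygous brain 1. After the genotype means were removed, the median correlation between 2 members over the 6 arrays was 0.25, against 0.00 for all gene pairs. Among 14 members known for induction by activity (Fos, Fosb, Junb, the 4 EGR genes, Arc, Npas4, Nr4a1, Nr4a3, Dusp1, Ier2 and Btg2) that median was 0.64. These 14 are not one of the role groups and were chosen by no stated rule. Every member that correlated below 0 with the mean of the others lies outside them, so the 0.64 depends on that choice. Over all members, 34.9% of pairs correlated above 0.5 and 13.9% below -0.5. The arrays are shared by every pair, so these correlations are a description.

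Fos and Junb followed the mean of the other members most closely, each with r = 0.96 over the 6 arrays, then Dusp1 at 0.92. Egr1 at 0.03, Ier3 at -0.02 and Nptx2 at -0.10 did not follow it, and Klf4 at -0.27, Sik1 at -0.36, Ier5 at -0.41, Zfp36 at -0.44, Jun at -0.55 and Jund at -0.67 ran the other way. For 13 members with several tested probe sets, the 2 brightest correlated above 0.5 for 4 genes, Btg2, Klf4, Egr3 and Nptx2, and below 0 for Ccn1 and Fosl2. The signs of the genotype difference disagreed between probe sets for 7 of the 13.

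**Figure D3:**
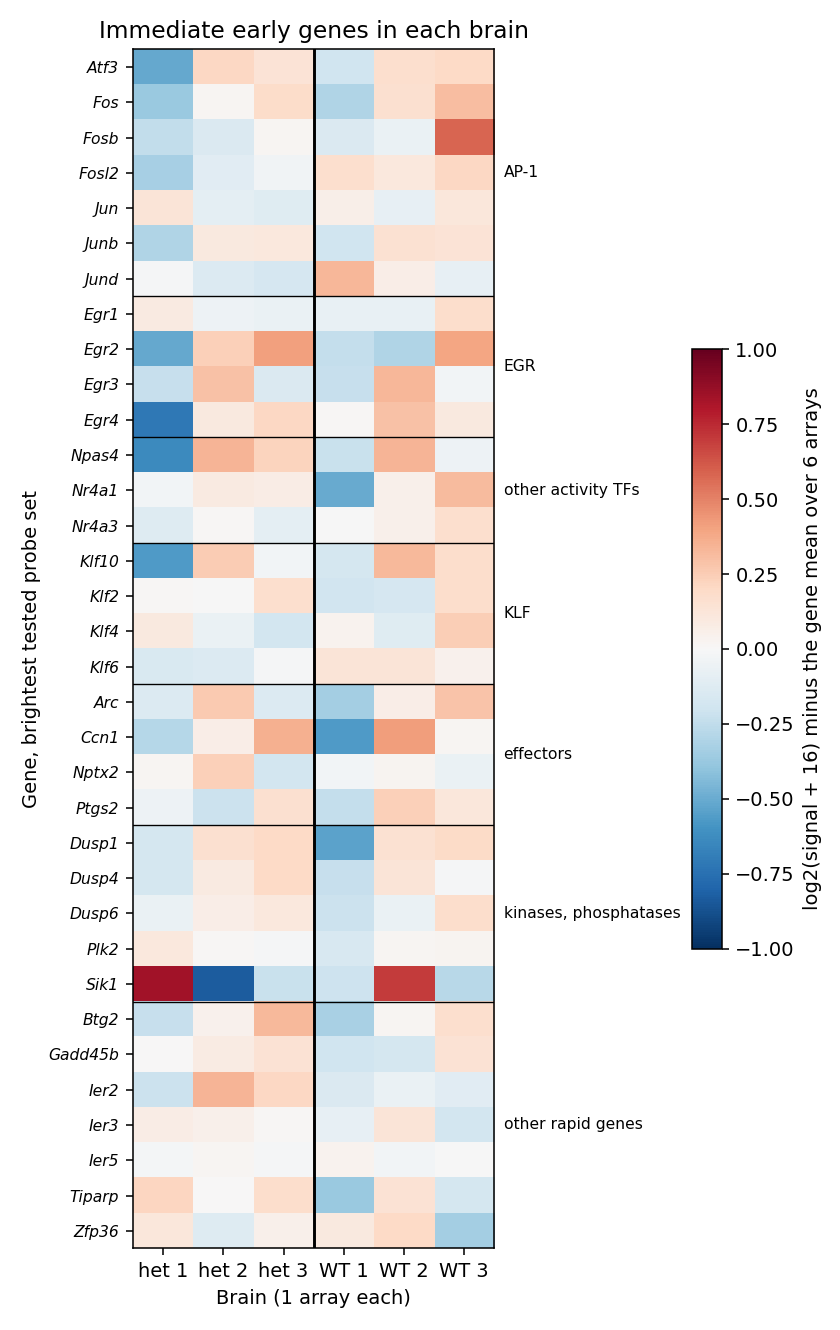
Level of each of 34 members in each brain, as log2(signal + 16) minus that gene's mean over the 6 arrays (colour, red high and blue low), with heterozygous brains left of wild-type brains and genes ordered by role. Brain 1 of each genotype is low for Fos, Junb, Npas4, Klf10, Dusp1 and Btg2, and Sik1, close to the dim limit, has the widest range.

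The promoters of the 4 members above a signal of 100 that followed the others best, Fos, Junb, Dusp1 and Btg2, are shown because they moved together between brains. RefSeq (GRCm38.p6) gives the 250 bases before the start of transcription, 5′ to 3′, with capitals for matches to the cAMP response element TGACGTCA or its half-site TGACG, the EGR site GCGNGGGCG and the TATA box TATAAA. A CREB dimer binds the full cAMP response element, whose every copy holds the half-site on each strand.
Fos (chr12:85473640-85473889, plus strand): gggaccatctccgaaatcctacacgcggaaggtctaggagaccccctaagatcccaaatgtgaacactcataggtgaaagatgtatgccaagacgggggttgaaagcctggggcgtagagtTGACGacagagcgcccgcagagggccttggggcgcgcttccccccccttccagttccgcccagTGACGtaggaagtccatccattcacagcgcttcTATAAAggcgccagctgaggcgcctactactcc
Junb (chr8:84978749-84978998, minus strand): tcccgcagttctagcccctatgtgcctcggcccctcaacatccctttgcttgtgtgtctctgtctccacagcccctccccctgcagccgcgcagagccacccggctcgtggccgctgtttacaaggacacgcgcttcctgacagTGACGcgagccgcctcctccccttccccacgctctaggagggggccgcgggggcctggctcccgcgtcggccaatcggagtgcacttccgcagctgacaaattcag
Dusp1 (chr17:26508473-26508722, minus strand): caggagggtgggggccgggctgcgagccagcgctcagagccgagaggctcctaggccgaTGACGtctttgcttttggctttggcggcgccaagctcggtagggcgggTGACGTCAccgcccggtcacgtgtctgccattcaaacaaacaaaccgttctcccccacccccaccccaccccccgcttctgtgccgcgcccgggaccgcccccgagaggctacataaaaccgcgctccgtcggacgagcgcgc
Btg2 (chr1:134079156-134079405, minus strand): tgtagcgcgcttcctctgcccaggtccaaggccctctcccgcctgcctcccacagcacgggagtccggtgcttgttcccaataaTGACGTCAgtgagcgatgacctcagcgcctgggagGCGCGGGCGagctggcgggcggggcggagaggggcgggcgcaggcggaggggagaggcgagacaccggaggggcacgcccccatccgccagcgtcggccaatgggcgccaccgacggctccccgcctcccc

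Fos held 2 half-sites, which start 129 and 66 bases before transcription, and a TATA box that starts 33 bases before it. Junb held 1 half-site. Dusp1 held a full cAMP response element 143 to 136 bases before the start, with a further half-site upstream, and Btg2 one at 166 to 159 bases, followed by an EGR site. The well-known serum response element of Fos lies upstream of this window.

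The motif search covered both strands from 250 bases before to 50 after the start for 27 members, and 8 members had no entry. The half-site was found for 17 of the 27 (63.0%), against 23.0% of 27025 genes with a promoter. The full element was found for Dusp1, Btg2, Maff and Plk2, which is 14.8% of members against 2.03% of genes. EGR sites were found for 9 members (33.3%), against 6.27% of genes. The CArG box, the core of the serum response element, was found for Egr2 and Zfp36 (7.41%, against 1.81% of genes), the AP-1 site TGACTCA or TGAGTCA for 0 of the 27 (against 5.95% of genes) and the TATA box for 4 (14.8%, against 15.7%). Matches are a description of letters in this window, and base composition was not matched.

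The module level, the mean over the 34 members, was 7.85 ± 0.10 in heterozygous brains and 7.87 ± 0.14 in wild-type brains (SD, n = 3 each). Relative to the mean of the 6 arrays it was -0.13, 0.03 and 0.06 in heterozygous brains 1 to 3, and -0.15, 0.10 and 0.09 in wild-type brains 1 to 3. The genotypes overlapped, and their difference of -0.02 was smaller than either SD. Over the 14 activity-induced members, the levels were -0.27, 0.13 and 0.11 in heterozygous brains, and -0.23, 0.08 and 0.19 in wild-type brains. Members that ran the other way are not among these 14. Brain 1 was thus the lowest of both genotypes in both versions. The numbers were not taken as pairs, and with 3 brains each the same number can be lowest in both by chance. The mean over all genes stayed within 0.01 of 0 on every array. Those arrays had been scaled to an equal trimmed mean, which by itself favours a level mean over all genes.

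Without brain 1 of both genotypes, the range of the module level over the arrays was 0.06, against 0.25 with all 6. Those were the 2 lowest arrays, left out after their values were seen, so the range had to shrink. Without both of them the difference between genotypes was -0.05, and 0 member probe sets passed. Without wild-type brain 1 alone it was -0.11, and without heterozygous brain 1 alone 0.04. By role, the difference between genotypes was -0.16 for AP-1 genes, -0.10 for KLF genes, -0.06 for EGR genes and 0.12 for the other rapid genes.

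**Figure D4:**
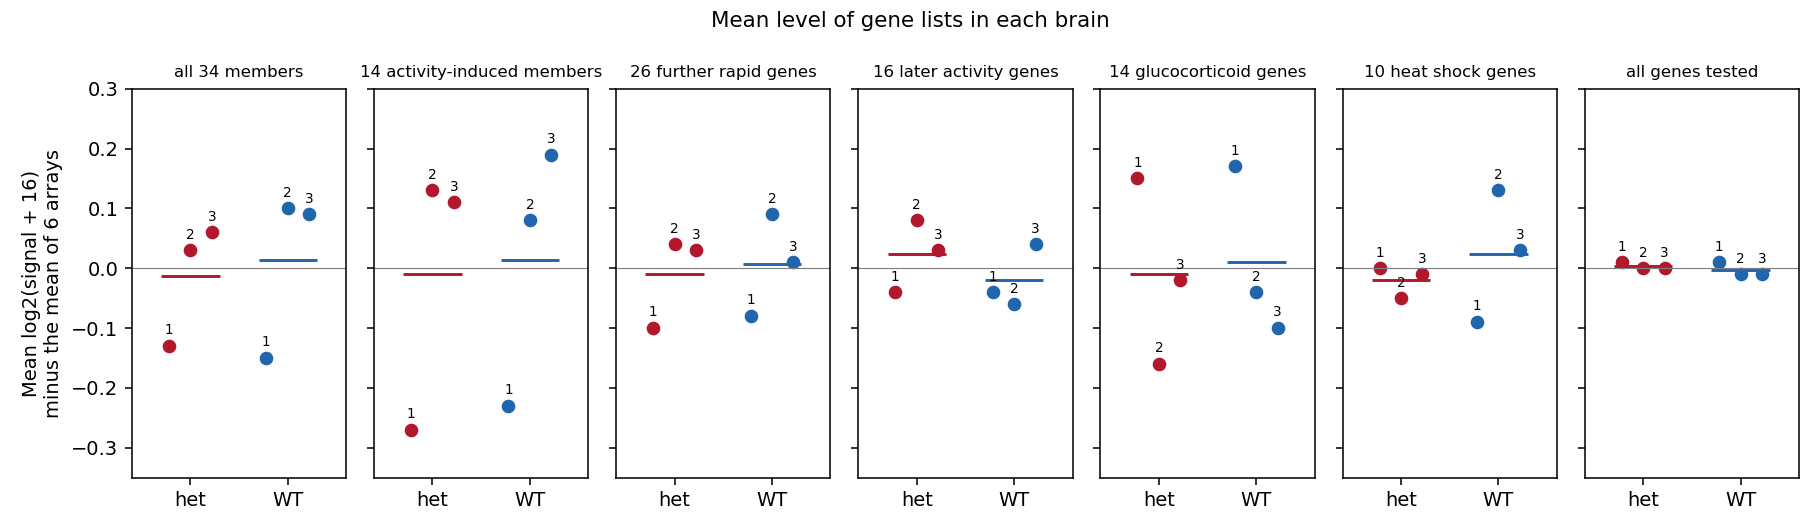
Mean log2(signal + 16) of 7 gene lists in each brain, minus the mean of the 6 arrays, with heterozygous (het) left of wild type (WT), brains numbered 1 to 3 and bars for group means. The 34 members and the 14 activity-induced members were lowest in brain 1 of each genotype, and the glucocorticoid list was highest there. The mean of all 13024 genes was level, on arrays scaled to an equal trimmed mean.

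The kinases, coactivators and transcription factors that induce these genes gave 0 calls among 27 measured, 18 higher and 9 lower in sign (median 0.04). Camk2a, the main calcium-dependent kinase of synapses, measured 2040.4, 2809.7 and 2667.8 in heterozygous brains, against 1897.7, 1687.8 and 1772.1 in wild-type brains, and missed the threshold (difference 0.47, SE 0.12, limma adjusted p = 0.956). The histone acetyltransferase gene Ep300 lay at 0.34 (SE 0.13), and the SRF partners Elk3 and Elk1 at -0.23 (SE 0.15) and -0.16 (SE 0.16). The mean level of the list spanned 0.09 over the arrays, while single genes ranged up to 0.80 for Camk4, with a median range of 0.32 against 0.41 for all genes.

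Further rapid genes outside the member list gave 0 calls among 26, 14 higher and 12 lower in sign (median 0.01). Ccn2, a relative of Ccn1, was lowest by moderated t, with 244.0, 244.0 and 252.5 in heterozygous brains and 303.4, 302.0 and 326.6 in wild-type brains. The genotypes did not overlap, and the difference of -0.31 (SE 0.09, unadjusted p = 0.00617, limma adjusted p = 0.956) missed the threshold. Rgs2, a brake on G-protein signalling, lay at -0.22 (SE 0.12), Homer1, a synaptic scaffold gene, at 0.17 (SE 0.14) and Sertad1 at 0.12 (SE 0.13). This list too was lowest in brain 1 of each genotype, at -0.10, 0.04 and 0.03 in heterozygous brains and -0.08, 0.09 and 0.01 in wild-type brains.

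Genes that follow activity later gave 0 calls among 16 (median 0.06). The growth factor gene Bdnf measured 196.3, 240.9 and 254.4 in heterozygous brains, against 143.4, 239.3 and 218.9 in wild-type brains, lowest in brain 1 of each, and was singled out after its values were seen. The list itself lay at -0.04, 0.08 and 0.03 in heterozygous brains and -0.04, -0.06 and 0.04 in wild-type brains, lowest in brain 2 among the wild-type ones. By moderated t the highest were Sorcs3 at 0.26 (SE 0.15) and Kcna1 at 0.13 (SE 0.08), and the lowest Vgf, a neurotrophin-induced peptide precursor gene, at -0.18 (SE 0.10) and Scg2 at -0.07 (SE 0.07). The mean of this list spanned 0.14 over the arrays, against 0.25 for the members.

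Lists that respond to handling gave 0 calls as well. Of 14 genes induced by glucocorticoids, 8 were higher and 6 lower in sign (median 0.01), from Pdk4 at -0.43 (SE 0.18) and Ddit4 at -0.16 (SE 0.12) to Zbtb16 at 0.22 (SE 0.14) and Per1 at 0.14 (SE 0.16). Their mean level was 0.15, -0.16 and -0.02 in heterozygous brains and 0.17, -0.04 and -0.10 in wild-type brains. Brain 1 of each genotype, lowest for the immediate early genes, was therefore highest for this list. Sgk1, Per1 and Errfi1 belong both to this list and to the further rapid genes, so those lists are not separate. Mt1, a metallothionein gene, measured 3719.5, 2782.2 and 2867.5 in heterozygous brains and 4152.7, 2495.3 and 3513.7 in wild-type brains, and Plin4, a lipid droplet gene, 44.6, 16.8 and 26.5 in heterozygous brains and 36.1, 20.8 and 18.9 in wild-type brains. Both were singled out after their values were seen, while Klf9 and Nfkbia of the same list were lowest in wild-type brain 1. Among heterozygous brains, Fkbp5, Errfi1 and Ddit4 of this list were highest in brain 3. Fkbp5 measured 131.3, 120.1 and 205.7 in heterozygous brains and 165.6, 157.3 and 158.8 in wild-type brains.

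Heat shock genes (10 measured, median -0.05) spanned 0.22 in mean level. By moderated t they ran from Hspa1a at -0.24 (SE 0.15) and Bag3 at -0.24 (SE 0.15) to Hspb1 at 0.22 (SE 0.13) and Dnaja1 at 0.13 (SE 0.08), and the lowest by size was Hspa1b at -0.27. Hypoxia genes (12 measured, median 0.00) spanned 0.18, by moderated t from Egln3 at -0.27 (SE 0.20) and Adm at -0.14 (SE 0.20) to Pdk1 at 0.23 (SE 0.10) and Bnip3 at 0.12 (SE 0.07).

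Lists of neuron, glia and vessel markers spanned at most 0.25 over the arrays, against 0.25 for all 34 members and 0.46 for the activity-induced ones. Astrocyte markers, 8 genes, had mean levels of 0.06, -0.03 and -0.14 in heterozygous brains and 0.08, -0.02 and 0.05 in wild-type brains, so that brain 1 was the highest of each genotype. Single astrocyte genes differed, and Aqp4 and Gja1 were highest in brain 2 of each genotype. The mean level of 7 oligodendrocyte markers was also highest in brain 1, at 0.01, -0.02 and -0.05 in heterozygous brains and 0.14, -0.11 and 0.03 in wild-type brains. The 12 neuron markers lay at 0.09, -0.04 and -0.03 in heterozygous brains and 0.01, -0.04 and 0.02 in wild-type brains. The 7 microglia markers lay at -0.03, 0.04 and -0.05 in heterozygous brains and -0.04, -0.04 and 0.13 in wild-type brains. Brain 1 was not the highest wild-type brain for either list. The mean level of 9 markers of cortical and hippocampal neurons, where many of these genes are most inducible, was 0.04, 0.03 and -0.11 in heterozygous brains and 0.02, 0.07 and -0.05 in wild-type brains. Of these, 6 were higher and 3 lower in sign in heterozygous brains. Nrgn at -0.37 (SE 0.09) and Neurod6 at -0.27 (SE 0.11) did not overlap, nor did Rasgrf2 at 0.06 (SE 0.07), as for 10.2% of all genes. All missed the threshold. For 10 markers of endothelium and mural cells it was -0.04, 0.03 and 0.02 in heterozygous brains, and 0.07, -0.11 and 0.03 in wild-type brains. The mean level of 6 tested pituitary markers was -1.44, -1.52 and 1.10 in heterozygous brains and 3.03, -0.64 and -0.53 in wild-type brains. For 4 tested blood markers the mean level was -0.40, 0.24 and 0.29 in heterozygous brains and 0.10, 0.16 and -0.41 in wild-type brains. The part of these marker lists in the spread of the immediate early genes was not tested.

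Over the 6 arrays, the 6 non-member genes whose level was most like the module level were Adssl1 (r = 0.991), Slco1c1 (0.986), Grm7 (0.985), Fgf13 (0.983), Niban1 (0.979) and Zfp655 (0.978), taken from 12990 genes. Slco1c1, a thyroid hormone transporter of brain vessels and astrocytes, measured 545.1, 641.9 and 652.5 in heterozygous brains and 544.9, 650.3 and 673.6 in wild-type brains. Grm7, a presynaptic glutamate receptor gene, measured 316.4, 442.4 and 460.8 in heterozygous brains and 322.3, 469.2 and 456.2 in wild-type brains. With 6 arrays, 86 of these genes (0.662%) had r above 0.9 and 103 had r below -0.9.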

How the data were processed

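Each of 6 whole brains was hybridised to 1 array, from RNA labelled with an oligo(dT) primer, per the labels' protocols. The authors deposited linear intensity values per probe set, and the values show scaling to an equal trimmed mean. The sources used here do not name the summarising software. Of 45101 probe sets, 64 are controls, 34945 have 1 gene in the platform annotation, 932 have several and 9160 are unnamed here. Symbols were updated through Entrez identifiers to RefSeq (GRCm38.p6; 34741 matched).

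Values were transformed as log2(intensity + 16), which understates folds of dim probe sets. Probe sets at or below the 40th percentile of the mean over all arrays (19.1) were removed, which left 27022. Genotypes were compared with limma 3.58.1 in R 4.3.3 (lmFit, eBayes with an intensity trend, two-sided, Benjamini-Hochberg over all probe sets tested, threshold 0.05), and exact permutation tests were two-sided. The fit was also run on simulated data with independent noise for each probe set. Those data hold no shift shared between genes, and no result here rests on them. A gene is represented by its brightest tested probe set.

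Values on every array are given for members with the highest and lowest moderated t, an unadjusted p below 0.05, the 8 widest ranges, and the brightest and widest of each role group. Other members followed by value were added afterwards. The 2 highest and 2 lowest genes by moderated t are given for each further list, as are the 6 genes most like the module level. Members and lists were chosen with earlier results of these data known. The cAMP response half-site was added to the motifs after their matches were seen. Alternatives were other normalizations, pseudocounts, dim filters, eBayes settings, a replicate block, other summaries, a looser threshold and leaving out arrays. The titles number the brains, apart from the first heterozygous one, which was numbered 1. Over all probe sets tested, deviations of same-numbered brains correlated at 0.09, 0.20 and -0.02, and those of differently numbered brains at -0.16 to 0.08. Over the members the correlations were 0.28, -0.22 and 0.32 for same-numbered brains and -0.40 to 0.32 for differently numbered ones. The numbers were not taken as pairs in the main fit, and the replicate block was an alternative. Whether same-numbered brains shared a batch was not tested.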

Additional observations from a re-analysis of the deposited data

How the results depend on the processing

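The count of 0 member probe sets past the threshold held under each of the 17 alternatives run for it, including the replicate block and an adjusted p below 0.1. The lowest adjusted p of a followed member was 0.645, with the replicate block, which changed no call of a member. The difference in module level lay between -0.11 and 0.04 with single arrays left out, and the median difference of the members between -0.11 and 0.05. The range of the module level was 0.46 over the activity-induced members and 0.06 without brain 1 of both genotypes, the 2 lowest arrays. With median centring that range was 0.32, and heterozygous brain 1 was the lowest array instead of wild-type brain 1. Over the whole table, 4 probe sets passed; 1 passed without the intensity trend, 1 without the dim filter, 1 to 14 with single arrays left out, 14 being without heterozygous brain 1, and 10 without brain 1 of both genotypes, an alternative added after seeing the data.

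Of 17 members followed, 12 changed sign in some alternative, none past the threshold. With single arrays left out, Egr1 lay between -0.06 and 0.07, Egr2 between -0.09 and 0.37, Egr4 between -0.44 and 0.02, Klf10 between -0.41 and 0.01, Arc between -0.18 and 0.13, Ccn1 between -0.17 and 0.32, Dusp1 between -0.11 and 0.25, Sik1 between -0.60 and 0.23, Npas4 between -0.23 and 0.26, Nr4a1 between -0.14 and 0.27, Btg2 between -0.04 and 0.23 and Ier5 between -0.02 and 0.01. The 5 that kept their sign were Tiparp, between 0.14 and 0.40, Ier2, between 0.10 and 0.38, Jund, between -0.30 and -0.10, Fosb, between -0.38 and -0.02, and Fosl2, between -0.39 and -0.24. Without brain 1 of both genotypes, Ccn1 lay at -0.01, Npas4 at 0.14, Nr4a1 at -0.10 and Ier5 at 0.02, and with quantile normalization Ier5 at 0.00. Median centring moved the median of all genes to -0.03. The AP-1 median was -0.21 with a pseudocount of 1. The causes were not tested. Dim members such as Sik1, Atf3 and Maff, near a signal of 19.1, were measured least firmly.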
